A study of Gallus gallus with 20 samples.

Results

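Arginine is a substrate of several enzymes in the kidney of the chicken (Gallus gallus). The genes described are CPS1, OTC, ASS1, ASL1, ASL2, ARG2, OAT, GATM and GAMT, which make arginine, break it down or turn it into creatine. They were chosen by gene symbol, as 9 names looked up in the transcript table of a kidney RNA-seq library. Of these, 6 had a row under their symbol, with 9 rows in all, out of 19649 genes and 79570 rows. Of these genes, 12680 carry a symbol other than LOC and a number, as the members do. CPS1, GATM and GAMT had no row under their symbol or under an accession that RefSeq's chicken gene table gives to them. These 3 genes were not analysed here.

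The series comprised 20 chicken samples, and the 19 small RNA libraries of kidney and testis among them were not analysed here. The RNA-seq library used was a single one, of adult kidney, with no treatment and no sex given in the labels. It held 21832272 estimated reads. There was no second library, so no difference was tested, and all intervals are 95% intervals that cover counting error only.

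Mammals join ammonia and ornithine into citrulline, convert citrulline to arginine by argininosuccinate, and release urea from arginine. Birds excrete nitrogen mainly as urate, and chickens need arginine in their feed. Arginine is also the donor for guanidinoacetate, the precursor of creatine, and its breakdown yields ornithine, from which proline, glutamate and polyamines are made. In the mammalian kidney, the proximal tubule takes up circulating citrulline and releases arginine.

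The 6 measured genes did not stand at one level. ASS1, which joins citrulline and aspartate to argininosuccinate, and the mitochondrial arginase ARG2 had the highest levels. OAT and ASL2 followed, and ASL1 and OTC were the lowest. Levels are in TPM, the authors' read density per base of transcript scaled to a fixed total over the library, and a gene's level is the sum over its rows. Genes with 3 reads or more and a level of at least 1 TPM were called detected. By that rule 5 of the 6 genes were detected, against 51.4% of all genes with a row and 70.4% of the 12680 genes with a symbol. The median level was 51.0 TPM over the 6 genes, against 1.21 TPM over all 19649 genes, 6.04 TPM over those with a symbol and 11.2 TPM over the 10097 detected ones. Together the 6 genes held 9073 reads, 0.0416% of the library, and ASS1, ARG2 and OAT held 90.8% of their summed TPM. In a bulk sample with 1 library, a level cannot be divided into the number of cells that make a transcript and the amount in each.

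**Figure D1:**
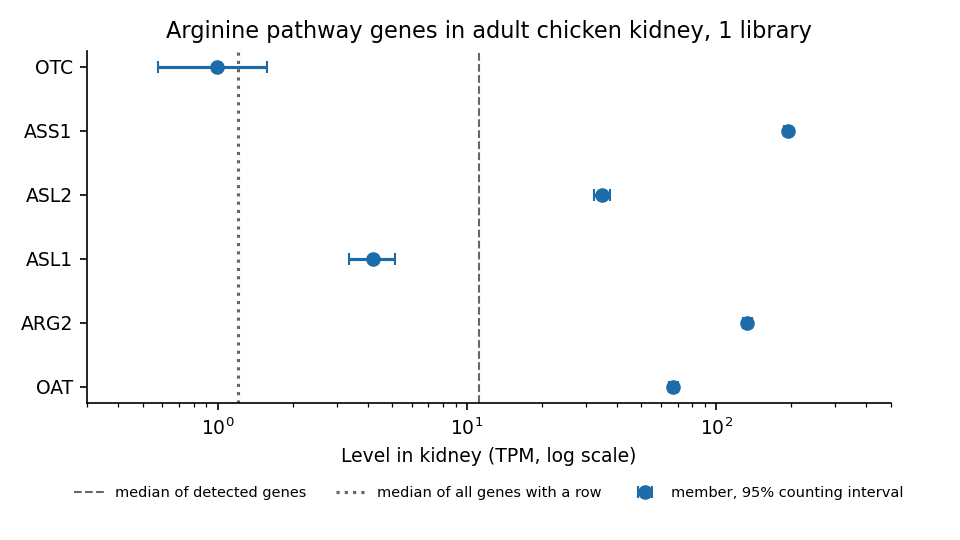
Level of each measured gene in adult chicken kidney, in TPM on a log axis, with 95% counting intervals and 1 library. ASS1 at 193 TPM and ARG2 at 133 TPM lie farthest right, and the interval of OTC spans the dotted line at the median of all genes, 1.21 TPM. The dashed line marks the median of detected genes, 11.2 TPM.

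OTC, the mitochondrial enzyme that makes citrulline from ornithine and carbamoyl phosphate, was the lowest of the 6. Its single row, a curated transcript of 1285 bases, held 17 reads and stood at 0.989 TPM (0.576 to 1.58). The interval included the 1 TPM threshold, so the gene's place on either side of it was not resolved at this depth. A share of 48.4% of all genes had a lower level. CPS1, which makes the carbamoyl phosphate that OTC uses in mammalian liver, was not analysed here, so the entry into the cycle rests on OTC alone.

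ASS1 catalyses the step after citrulline. Its single curated row, of 1496 bases, held 3957 reads, a level of 193 TPM (187 to 199) that exceeded 98.4% of genes. ASS1 was 195-fold (122 to 335) above OTC, the step before citrulline. The transcripts of OTC and ASS1, whose enzymes act on the 2 sides of citrulline, thus stood far apart, with OTC low and ASS1 high. The synthesis and use of citrulline were not measured.

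Argininosuccinate is split into arginine and fumarate by argininosuccinate lyase. In the chicken the lyase is represented by a pair of neighbouring genes, named in the table as ASL2 and ASL1. ASL1 encodes delta-crystallin 1, a major lens protein, and ASL2 encodes delta-crystallin 2, which keeps the lyase activity. In the gene order of RefSeq's GRCg7b assembly no other protein-coding gene lies between them. ASL2 had 742 reads on 3 rows, which gave 34.8 TPM (32.4 to 37.4), and 90.5% of genes were lower. ASL1 had 92 reads on 2 rows, which gave 4.18 TPM (3.37 to 5.12), and 61.0% of genes were lower. ASL2 was thus 8.33-fold (6.70 to 10.5) above ASL1.

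The transcript rows of the pair show how this level was made up. The curated ASL2 transcript of 1401 bases held 379 reads and 57.2% of the gene's TPM. A predicted ASL2 transcript of 1702 bases held 347 reads and 41.9%, and a predicted one of 3306 bases held 16.4 reads and 1.0%. By reads rather than TPM, the shares of the first and second were 51.0% (47.4 to 54.7) and 46.7% (43.1 to 50.4). These intervals leave out how reads that match more than 1 row were divided, so they do not compare the 2 rows. Neither predicted ASL2 transcript is listed in RefSeq's GRCg7b gene table, whereas the curated one is. ASL1 was concentrated on 1 row. Its curated transcript of 1578 bases held 81.7 reads and 89.6% of the gene's TPM, and its predicted transcript of 1703 bases held 10.4 reads and 10.4%.

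**Figure D2:**
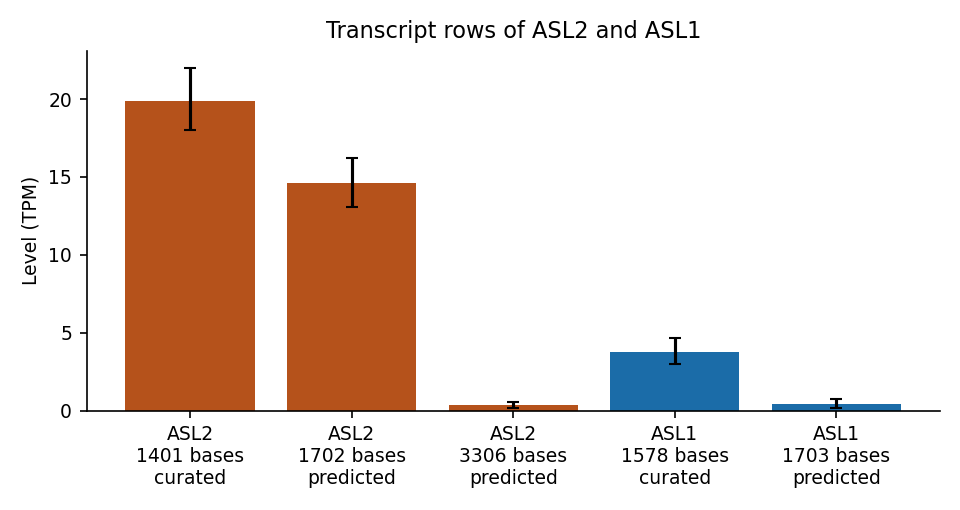
Level in TPM of each transcript row of ASL2 and ASL1, with bars from 0 and 95% counting intervals, in 1 kidney library. The ASL2 rows of 1401 and 1702 bases reach 19.9 and 14.6 TPM, the curated ASL1 row 3.74 TPM, and the other rows stay under 1 TPM.

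ASL1 and ASL2 are close relatives, and reads that match both were divided between their rows by the authors' estimation, so the ratio between them is uncertain beyond its interval. On each gene's most abundant row alone, which for both was the curated row, it was 5.32. That setting drops an ASL2 row with 41.9% of the gene's TPM and does not test how reads were divided between the genes. The summed reads of the pair do not depend on how reads were divided between them. Summed, the pair had 834 reads and 39.0 TPM (36.4 to 41.7), with 89.3% of the TPM on ASL2. ASS1 was 4.94-fold (4.59 to 5.33) above this sum. ARG2 was 3.42-fold (3.16 to 3.71) above it and OAT 1.72-fold (1.59 to 1.87), so the pair stood below all 3 however its reads were split between the 2 genes.

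The lens protein genes listed as markers had low levels, of at most 1.12 TPM. All 11 had a row and 1 reached the detection threshold, against 51.4% of all genes. No reads were assigned to 5 of them, among them the alpha-crystallin gene CRYAA and the lens aquaporin gene MIP, against 23.9% of all genes without reads. Their summed level was 3.32 TPM, against 4.18 TPM for ASL1 alone.

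ARG2, which splits arginine into ornithine and urea in mitochondria, had a single curated row of 1209 bases with 2134 reads. Its level was 133 TPM (128 to 139), higher than 97.6% of genes, and ASS1 was 1.44-fold (1.37 to 1.52) above it. OAT, the mitochondrial aminotransferase that leads ornithine towards glutamate and proline, had a single predicted row of 2202 bases with 2130.0 reads. Its level was 67.2 TPM (64.4 to 70.1), higher than 95.4% of genes. ARG2 and OAT had nearly the same number of reads, and the shorter row gave ARG2 a level 1.99-fold (1.87 to 2.11) above that of OAT. Both enzymes act on the ornithine side of arginine, and both stood above OTC, by 135-fold (84.1 to 232) for ARG2 and 67.9-fold (42.3 to 117) for OAT.

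In descending order the genes were ASS1, ARG2, OAT, ASL2, ASL1 and OTC. The 95% intervals of the ratios between neighbours in this order all lay above 1. The narrowest gap was that of ASS1 over ARG2. ASL1 was 4.22-fold (2.50 to 7.56) above OTC, and OAT was 1.93-fold (1.77 to 2.10) above ASL2. Because these are ratios within 1 library, the intervals leave out any difference between animals. This order was also found under each of 4 other ways of computing the levels. Most of these could change it little or not at all. Leaving out short rows or the 10 genes with the highest TPM multiplies every member by the same factor, so the order could not change. The most abundant row alone changes only ASL2 and ASL1. None of these ways tests how reads were divided among rows.

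**Figure D3:**
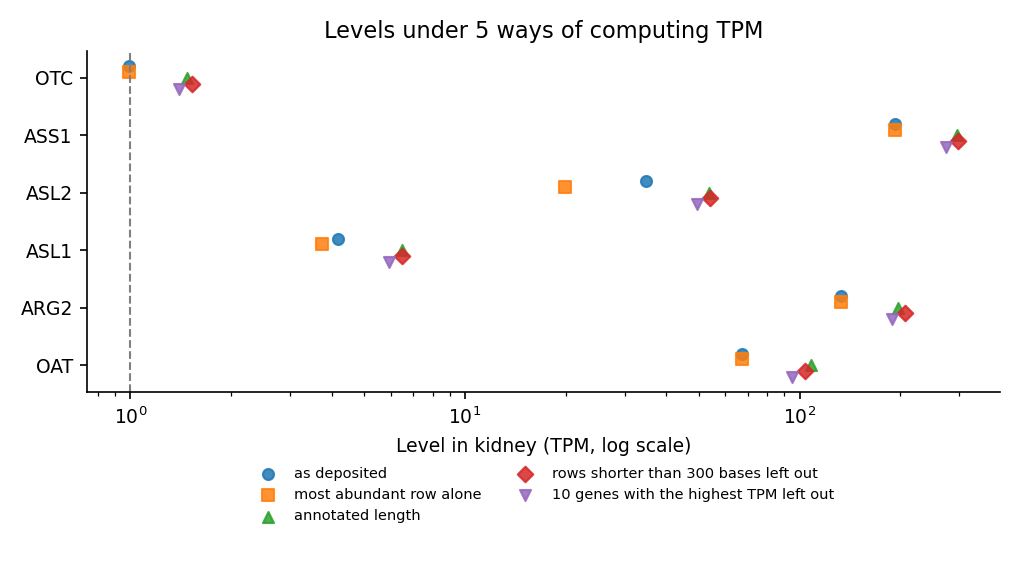
Level of each gene in TPM, on a log axis, as deposited and under 4 other ways of computing it, in 1 kidney library. The genes keep their order under each, and the levels shift together where TPM is scaled again. Scaling again without some rows shifts all members by the same factor, which cannot change the order. OTC lies between 0.989 and 1.53 TPM, on both sides of the dashed line at 1 TPM.

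The detection of OTC depended on the scaling. Rows shorter than 300 bases held 35.4% of the library's TPM and 0.493% of its reads. Leaving them out gave OTC 1.53 TPM, and leaving out the 10 genes with the highest TPM, a setting chosen after seeing the data, gave it 1.40 TPM. All 6 genes were then detected, but the share of all genes passing was not computed for these settings. Detected genes as a whole rose by a median of 1.55-fold without short rows and 1.42-fold without the 10 genes. At a threshold of 0.5 TPM all 6 were called as well, against 56.3% of all genes. At a threshold of 5 TPM, 4 of the 6 genes were called, ASL1 and OTC falling below it, against 36.8% of all genes.

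Some reads of ASS1, ARG2, OAT, ASL2 and ASL1 were divided with rows of other names. Estimated reads that are not whole numbers, to within 0.0005, come from reads divided among rows. The summed reads of ASS1, ARG2, OAT, ASL2 and ASL1 were not whole, while the 17 reads of OTC were. How many reads were divided cannot be read from the fractions, and a whole number does not exclude divided reads. Among genes with 1 row, reads were not whole in 48.2% of those with at least 3 reads and in 93.9% of those with at least 1000. ASS1, ARG2 and OAT belong to the second set and OTC only to the first. ASL1 and ASL2 have more than 1 row and belong to neither. Transcripts assembled without a gene name held 25.9% of all reads, and reads of a named gene that were placed on one of them are not in its level.

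Genes next to the members on the chromosome stood above some members and below others. By the gene order of GRCg7b, the nearest protein-coding genes with a row beside ASS1 were NCS1 and FUBP3, at 22.9 and 21.8 TPM. Those beside ARG2 were PIGH and VTI1B, at 8.08 and 11.2 TPM. OTC, in contrast, lay between TSPAN7 at 64.9 TPM and RPGR at 0.444 TPM. OAT lay between NKX1-2 with 2 reads, at 0.120 TPM, and GPR26 without reads, with 3 protein-coding genes that have no row between it and GPR26. Beside the ASL pair, TPST1 stood at 41.5 TPM next to ASL2 at 34.8 TPM, with 1 protein-coding gene without a row between them, and KCTD7 at 1.65 TPM next to ASL1 at 4.18 TPM. ASS1, ARG2 and OAT each stood above both neighbours named here, as they did above 98.4%, 97.6% and 95.4% of all genes.

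Other genes of arginine metabolism were measured in 7 lists. Of 61 genes listed, 42 had a row and 40 were detected, against 70.4% of genes with a symbol, and the median was 33.8 TPM. The same share is the background for each list that follows. Of 7 genes listed for nitrogen entry, 4 had a row and all 4 were detected, from 10.5 to 441 TPM. Their median, 92.6 TPM, falls in the wide gap between GOT1 and CAD, whose levels follow. GLUD1, glutamate dehydrogenase, stood at 441 TPM (433 to 449), and GOT1, an aminotransferase that makes the aspartate ASS1 uses, at 174 TPM (168 to 179). CAD, which makes carbamoyl phosphate in the cytosol for pyrimidines, stood at 11.7 TPM (11.0 to 12.3).

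The transport list had 11 genes with a row, all detected, with a median of 48.1 TPM. Besides carriers of arginine and ornithine it holds mitochondrial carriers of aspartate and glutamate. The median is the level of such a carrier, SLC25A12. SLC7A7, an exchanger of cationic amino acids matched through its RefSeq transcripts to rows named SLC7AL, stood at 299 TPM (295 to 304). SLC25A15, which carries ornithine and citrulline across the inner mitochondrial membrane, stood at 233 TPM (229 to 238). SLC3A1, part of the luminal uptake system for cystine and cationic amino acids, stood at 158 TPM (154 to 162). The carrier SLC25A15 was 1.75-fold (1.67 to 1.83) above ARG2, 3.47-fold (3.31 to 3.64) above OAT and 236-fold (147 to 405) above OTC. These are the mitochondrial enzymes on both sides of the ornithine it moves.

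**Figure D4:**
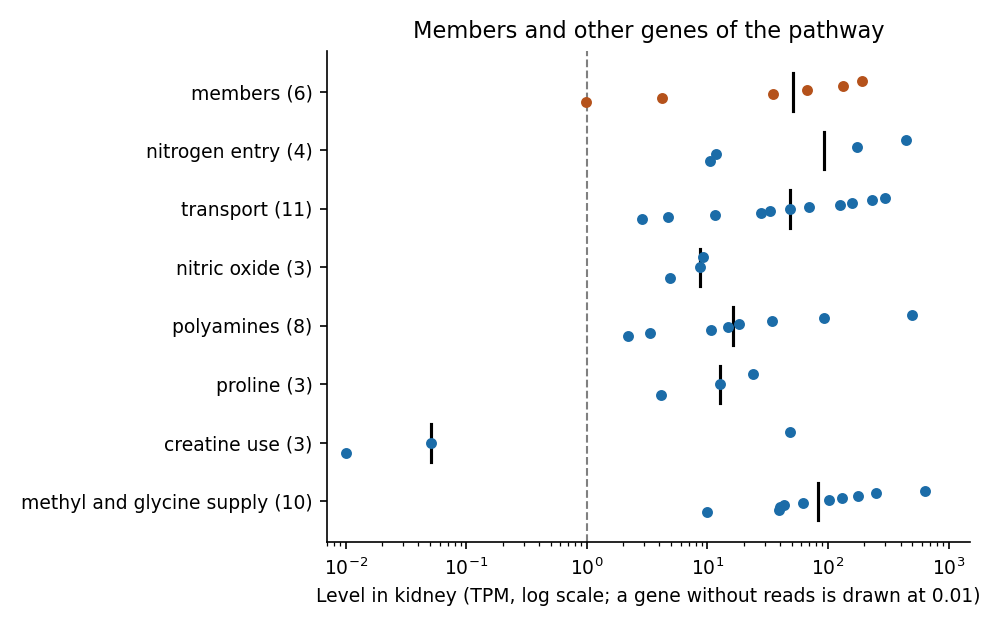
Level of each measured gene in TPM, on a log axis, for the 6 members and for 7 lists of other pathway genes, with the number of genes in brackets and 1 kidney library. Black bars are list medians and the dashed line marks 1 TPM. The members' median is 51.0 TPM. The medians of nitrogen entry, 92.6 TPM, and of the list labelled methyl and glycine supply, 81.9 TPM, lie to its right. CKMT2, without reads, is drawn at 0.01.

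The lists of genes for nitric oxide, proline and polyamines had lower medians than the 6 members. Each list also holds genes that do not carry out the steps from arginine or ornithine. Their medians are therefore not levels of these routes. The 3 nitric oxide genes, with a median of 8.74 TPM, were all detected, with DDAH1, which breaks down methylated arginines, at 9.13 TPM and the nitric oxide synthases NOS1 and NOS2 at 8.74 and 4.91 TPM. The 3 proline genes, with a median of 12.6 TPM, were all detected, with proline dehydrogenase PRODH at 24.1 TPM, ALDH18A1, which makes pyrroline-5-carboxylate from glutamate, at 12.6 TPM and the reductase PYCR1 at 4.14 TPM. All 8 polyamine genes passed the detection rule, and their median was 16.5 TPM. Of these, the antizymes OAZ1 and OAZ2, inhibitors of ornithine decarboxylase, stood at 498 and 92.0 TPM, and AMD1, which makes the aminopropyl donor, at 34.5 TPM. Ornithine decarboxylase itself, ODC1, which was singled out with its level known, had 18.2 TPM (16.6 to 19.9), against 67.2 TPM for OAT, which also uses ornithine.

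Creatine could be followed only outside its synthesis. The creatine transporter SLC6A8 stood at 48.7 TPM (46.5 to 51.0). The mitochondrial creatine kinase CKMT1A had 1 read, at 0.0505 TPM (0.00128 to 0.282), and CKMT2 had none, where 3 reads would have been 0.145 TPM. RefSeq's GRCg7b gene table names the CKMT1A row CKMT1B, a name that was also listed and had no row of its own. Of the 6 genes listed for creatine use, counting both names, 3 had a row and 1 was detected. The creatine kinase genes CKB and CKM had no row, so their levels were not measured. Of 12 genes listed for the methyl group and glycine of creatine synthesis, 10 had a row and all 10 were detected. Their median was 81.9 TPM. Some of these genes supply methyl groups or glycine and others use them up, so the median is not a level of supply. They also serve many other reactions. AHCY, which clears the product of methyl transfer, stood at 644 TPM (635 to 652), BHMT, whose row RefSeq's newer table names BHMT2, at 249 TPM, and the methionine adenosyltransferase MAT1A at 178 TPM.

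Markers of the proximal tubule, of hepatocytes and of skeletal muscle were measured beside these genes. Of 8 proximal tubule markers listed, 5 had a row, and all 5 were detected, from 509 to 4055 TPM. CUBN, SLC22A6 and SLC5A2 had no row. The lowest, PDZK1, stands on a row that RefSeq's GRCg7b gene table names PDZK1P1. Of 7 hepatocyte markers 4 were detected, and of 5 skeletal muscle markers 3, against 51.4% of all genes and 70.4% of those with a symbol, so these counts do not set the markers apart. The hepatocyte markers had a summed level of 137 TPM that came mainly from the transferrin gene TF at 76.6 TPM and APOH at 50.4 TPM, while albumin, ALB, stood at 0.492 TPM and TTR had no reads. The skeletal muscle markers ranged from 0.506 to 10.2 TPM. The part of other cell types in the levels of the 6 genes was not tested.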

How the data were processed

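RNA-seq of 1 kidney library was used, grouped by its title. Per the submitters' processing notes, Salmon was used with the galGal6 build. Salmon's version, its library type setting and how the transcripts were compiled were not given in the sources used here. Deposited TPM values, which the authors' table scales over all rows together, were used as levels. The deposited estimated counts, which were not whole in 27.7% of rows, were used for intervals. Annotated and effective lengths are other columns of the table, per the file headers.

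The gene of a row is the text between its accession and strand sign. Rows were summed by gene with Python 3.11.15 and pandas 2.3.3. RefSeq's GRCg7b gene table, of another build, gave names and gene order only. It held all 9 listed genes, with ASL2 under the name ASL. It matched 1 listed gene, SLC7A7, to rows of another name. Rows that already carried a listed name, as that of CKMT1A did, were not matched to a second one. The intervals are exact Poisson intervals for levels, exact conditional binomial intervals for ratios, computed for all 15 pairs of members, and Clopper-Pearson intervals for shares (scipy 1.17.1), on reads rounded to whole numbers. The Poisson and ratio intervals were tested on simulated Poisson counts. That simulation holds no reads divided among rows, so it tests the computation only. All intervals cover counting error only, since reads were not tied to single molecules. Where no reads were assigned, the level that 3 reads would give is the limit. The members, lists and tests were chosen with earlier results of these data known. Named were all members, the 3 highest genes of each other list and those without reads. Genes named beside them, as neighbours, markers, SLC25A12 or ODC1, were chosen outside this rule. No sequences are shown, because none were in the files used.

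The alternatives were the most abundant row alone, annotated length, rows shorter than 300 bases left out, other thresholds and read shares. Some pathway genes listed at first are not reported here. The planned ratio of GATM to GAMT was not computed.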

Additional observations from a re-analysis of the deposited data

How the results depend on the processing

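The order of the 6 genes was the same under the most abundant row alone, annotated length, and the removal of rows shorter than 300 bases or of the 10 genes with the highest TPM. The last 3 shifted the median of detected genes by 0.72, 0.63 and 0.50 on the log2 scale, and the members moved with it. Both removals multiply every member by the same factor, so they could not change the order. The median over the members was 51.0 TPM as reported, 43.5 TPM with the most abundant row alone, 80.8 TPM with annotated length, 79.0 TPM without short rows, 72.2 TPM without the 10 genes and 67.2 TPM with ASL1 and ASL2 taken as 1 level. The ratio of ASL2 to ASL1 was 8.33 over all rows and 8.28 with annotated length. It fell to 5.32 with the most abundant row alone and with curated rows alone, which for this pair are the same rows. The leading ASL2 row held 51.0% of reads, against 57.2% of TPM. The ratio of ASS1 to OTC lay between 195 and 200.0. The removal of the 10 genes, curated rows alone and the pair as 1 level were chosen after seeing the data. The number of members detected was 5 or 6, except for 4 at 5 TPM. The share of all genes detected was computed for the deposited levels only. The ratio of GATM to GAMT was not run. No paired analysis was possible because the values come from 1 library and no test. With 17 reads, counting error limits the level of OTC, and no replicate shows the spread between animals.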
